A study of Mus musculus with 12 samples.

Results

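The core circadian clock loop is a set of 10 genes here: the activators Arntl (also called Bmal1), Clock and Npas2, the repressors Per1, Per2, Per3, Cry1 and Cry2, and the nuclear receptors Nr1d1 and Nr1d2 (REV-ERB alpha and beta). They were chosen by name as the textbook members of the loop and found as 10 of the 53465 genes in a table of RNA-seq read counts from mouse liver, of which 28449 had at least 1 count. All 10 had counts and entered every fit, and all had an adjusted p except Npas2 in aged against middle-aged livers. The livers came from C57BL/6N mice aged 3 months (the young group), 12 months (the middle-aged group) or 18 months (the aged group). Each group had 4 livers, and each library came from 1 animal; the series' design text gives 3 replicates per age, whereas 4 samples per age are listed and all were used. The study's methods state that the mice were male. No genotype or treatment other than age separated the groups, and the methods describe mice fed freely and without signs of liver disease. The labels' account of RNA extraction names young and old livers and is silent on middle-aged ones, so how the middle-aged libraries were prepared is uncertain.

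In the loop, ARNTL pairs with CLOCK, or with its relative NPAS2, and binds E-box sequences in front of the Per, Cry and Nr1d genes. The PER and CRY proteins return to the nucleus and repress that pair, while NR1D1 and NR1D2 bind RORE sequences and repress Arntl, Npas2 and Clock, so that Arntl and Npas2 transcripts peak at a time of day when Nr1d1, Nr1d2 and Per3 transcripts are low, and Cry1 peaks later than the other repressors. Liver is a tissue in which these transcripts swing strongly over the day. The hour at which each liver was collected is not given in the sources used here, so every level here is a level at an unrecorded hour, and the part of the hour in the differences between ages was not tested.

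The libraries held 8124312 to 10527159 counts in genes. The synthetic spike-in RNAs in the table split them into 2 sets. Replicates 1 and 2 of each age formed set A and replicates 3 and 4 set B, and spike-in profiles correlated by 0.997 or more inside a set and by 0.925 or less across the sets; what the sets stand for is not given. All 7 hepatocyte markers looked at (Alb, Apoa1, Ttr, Serpina1c, Cyp2e1, Hnf4a and Cps1) were abundant, with a summed normalised count (count divided by the library's median-of-ratios size factor) of 751300 to 1021000 per liver. Young replicate 3 and middle-aged replicate 1 stood apart with 22284 and 19982 detected genes against 16361 to 17563 in the others, and young replicate 2 by a mitochondrial share of 19.2% against 5.48% to 10.68%. Since the RNA is from whole tissue, fewer cells of a type and less RNA per cell cannot be told apart.

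Promoter sequence was searched for the members whatever their values, and its part in their levels was not tested. RefSeq start sites on GRCm38.p6 gave windows for 9 of the 10 members; Per2 was the other one. Each window ran from 250 bases before the start to 50 after it, and it was searched on both strands for the exact letters of the E-box (CACGTG), the E′-box (CACGTT), the RORE (TAGGTCA or TGGGTCA) and the D-box (TTATGTAA), which bind, in that order, ARNTL with CLOCK, the same pair, the NR1D and ROR receptors, and DBP, TEF, HLF and NFIL3. The E-box and the E′-box share 5 of their 6 letters, but no match of either overlapped another. Of 32851 windows of all genes, 7.15% held the E-box, 4.68% the E′-box, 6.45% a RORE and 0.938% the D-box. The Per3 and Cry1 windows are shown because each held a pair of matches, in capitals. These genes went in opposite directions from middle-aged to aged livers, and a link of that to the matches was not tested. Per3 had the D-box at bases -205 to -198 and again at -158 to -151 before its start, and Cry1 had an E′-box, read here on the opposite strand, at -79 to -74 and an E-box at -60 to -55:
Per3 (chr4:151044666-151044915, minus strand): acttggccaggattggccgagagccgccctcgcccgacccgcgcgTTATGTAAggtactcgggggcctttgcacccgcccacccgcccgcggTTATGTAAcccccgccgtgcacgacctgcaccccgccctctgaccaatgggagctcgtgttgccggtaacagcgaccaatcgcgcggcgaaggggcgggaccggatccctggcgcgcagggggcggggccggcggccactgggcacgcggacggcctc
Cry1 (chr10:85185055-85185304, minus strand): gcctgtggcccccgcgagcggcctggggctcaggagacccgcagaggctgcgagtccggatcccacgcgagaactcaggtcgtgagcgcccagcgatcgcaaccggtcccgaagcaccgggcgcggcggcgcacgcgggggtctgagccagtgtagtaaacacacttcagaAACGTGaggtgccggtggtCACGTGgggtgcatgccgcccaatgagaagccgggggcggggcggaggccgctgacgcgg

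Single matches were found in 4 other members, and the bases around each are given for comparison, again with the match in capitals. The Per1 E-box lay at -166 to -161, the Cry2 E′-box at -166 to -161 and the Nr1d1 E′-box at -28 to -23, while the Arntl RORE lay after the downstream of its annotated starts, at bases 31 to 37:
Per1 (chr11:69098763-69098808, plus strand): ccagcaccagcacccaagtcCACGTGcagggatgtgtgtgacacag
Cry2 (chr2:92434210-92434255, minus strand): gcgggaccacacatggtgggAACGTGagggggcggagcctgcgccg
Nr1d1 (chr11:98775380-98775425, minus strand): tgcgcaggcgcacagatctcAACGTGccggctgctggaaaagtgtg
Arntl (chr7:113207530-113207559, plus strand): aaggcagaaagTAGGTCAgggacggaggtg

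The windows of Clock, Npas2 and Nr1d2 held none of these letters. A match is a description of the sequence and no match says only that the letters are not in the window.

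Per kilobase of exon the order of levels in young livers was led by the 2 nuclear receptors. Nr1d1 stood at 219 ± 45.3 normalised counts per kb (SD, n = 4, as for all values with ± on this scale) and Nr1d2 at 80.2 ± 19.1. Clock (31.6 ± 2.80) and Cry2 (28.6 ± 5.48) followed and differed from each other by less than the larger SD of the pair. Per1 (19.99 ± 5.32), Cry1 (18.3 ± 2.95), Per2 (17.2 ± 4.85) and Arntl (13.7 ± 6.47) formed a group in which no neighbours differed by more than that, and Per3 (3.08 ± 1.16) and Npas2 (2.71 ± 0.881) came last and also differed by less than the larger SD. In aged livers Cry1 reached 34.2 ± 12.2 per kb, beside Clock at 34.7 ± 8.07, and Arntl 23.4 ± 9.67, while Per3 lay at 1.78 ± 0.672.

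**Figure D1:**
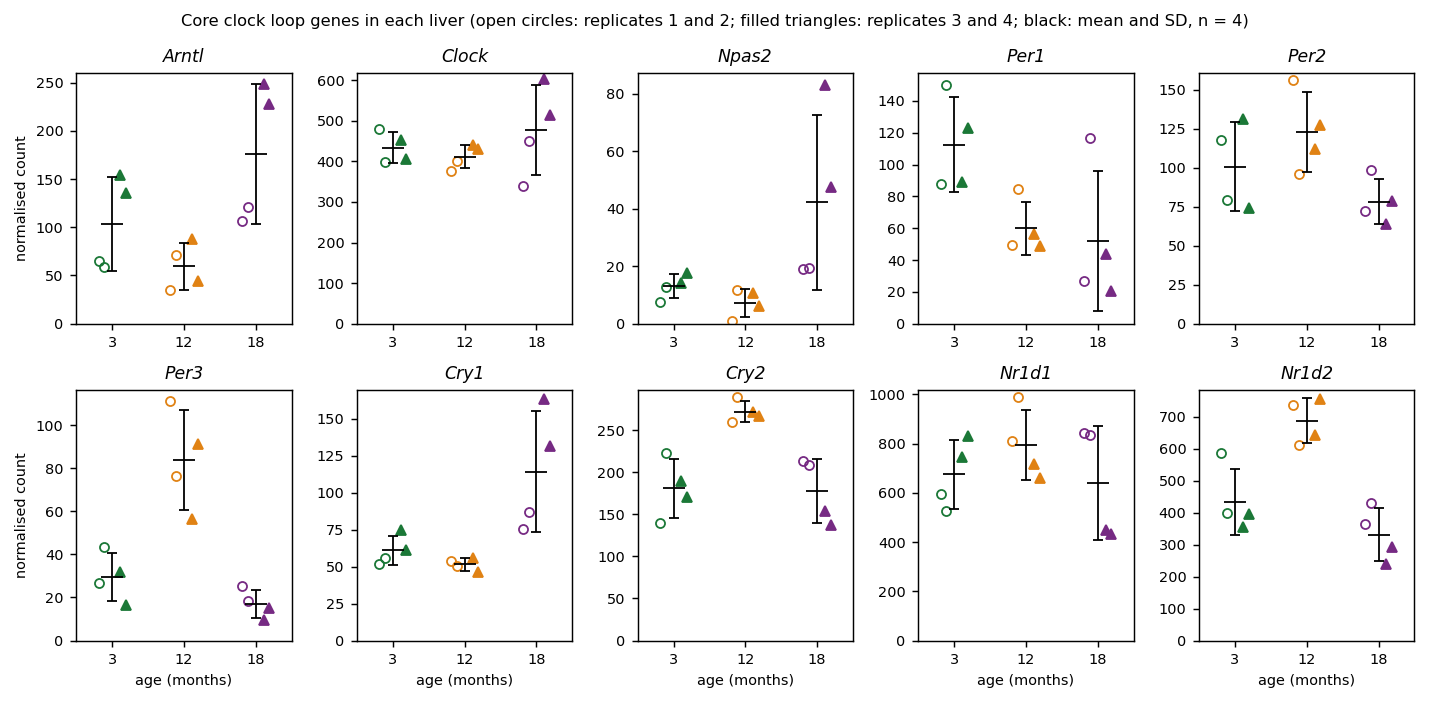
Normalised counts of the 10 core loop genes (y axis, linear, from 0) in each of 12 livers at 3, 12 and 18 months (x axis). Open circles are replicates 1 and 2 (set A), filled triangles replicates 3 and 4 (set B), and black bars the mean and SD of 4 livers; the middle-aged livers lie above all others for Per3, Cry2 and Nr1d2, and the triangles lie above the circles for Arntl in young and aged livers.

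Across the 3 ages, 6 of the 10 members differed in the likelihood ratio test of DESeq2 (Arntl, Npas2, Per3, Cry1, Cry2 and Nr1d2), where 6.96% of all 12430 genes with an adjusted p did so. With edgeR's quasi-likelihood test 3 members passed (Per3, Cry1 and Nr1d2), beside 234 of 12099 genes. Age accounted for 82.1% of the variance of log2 values of Per3 over the 12 livers, 75.7% of that of Nr1d2 and 72.1% of that of Cry1, against a median of 25.7% over the 11804 genes whose mean reached 10. At the other end were Nr1d1 with 17.5% and Clock with 13.3%. The scatter of livers within an age also set members apart: the SD within ages on the log2 scale was 0.961 for Npas2, 0.690 for Per1 and 0.646 for Arntl, against a median of 0.225 over the same genes and 0.222 for Clock.

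Between pairs of ages, 3 members rose from young to middle-aged and none fell, beside 3.51% of the 11333 genes tested that rose and 2.90% that fell (6.41% in all). From middle-aged to aged, 2 members rose and 3 fell out of 9 with an adjusted p, beside 0.537% and 0.606% of 10236 genes (1.14% in all). Between young and aged, only Cry1 passed in the 12-liver DESeq2 fit, and it rose, beside 1.87% of 13527 genes that rose and 1.71% that fell (3.58% in all). At an unadjusted p under 0.05 in DESeq2 the members numbered 5, 7 and 6 in these comparisons in that order. The share of all genes at that unadjusted p is not given here. EdgeR called 1 (Per3), 2 (Per3 and Nr1d2) and 0 members, beside 280, 13 and 172 of 12099 genes. The 3 comparisons share their groups, so the middle-aged livers enter both of the first 2.

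**Figure D2:**
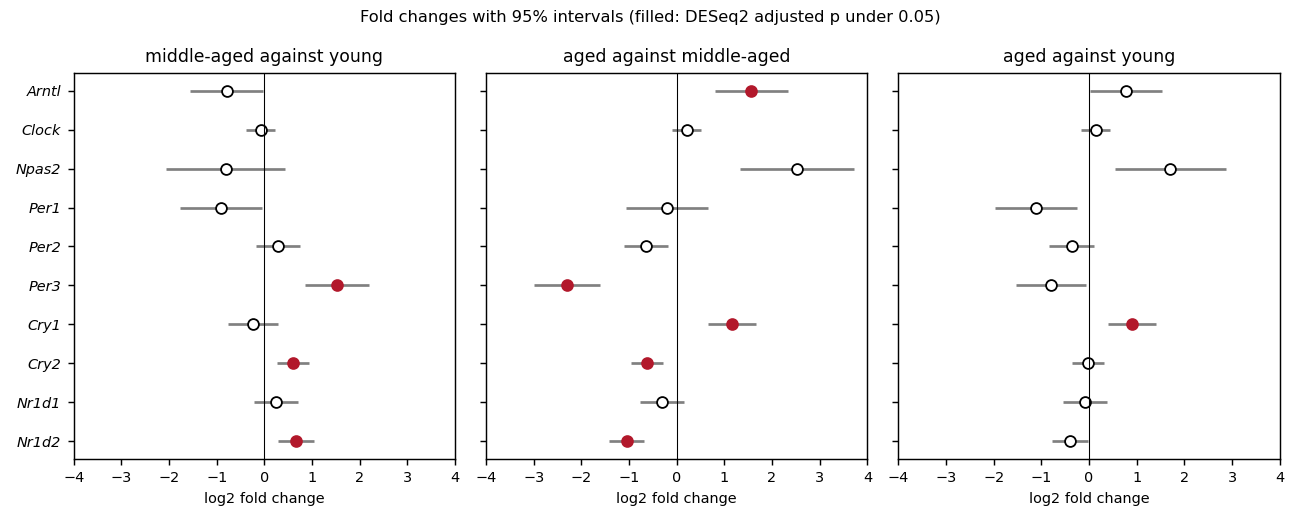
Log2 fold changes of the 10 genes (x axis) for the 3 pairs of ages, with 95% intervals as grey lines, from a DESeq2 fit of 12 livers. Filled red points have an adjusted p under 0.05; Per3, Cry2 and Nr1d2 lie to the right in middle-aged against young and to the left in aged against middle-aged. Npas2 has no adjusted p in aged against middle-aged and is drawn open.

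Arntl (ENSMUSG00000055116, chr7:113207465-113314126, plus strand) encodes the partner without which neither CLOCK nor NPAS2 acts in the loop. Its normalised counts were 64.8, 58.6, 154 and 136 in young replicates 1 to 4. They were 34.8, 70.9, 88.3 and 44.1 in the middle-aged livers. They were 106.4, 121.4, 249.1 and 227.9 in the aged livers. Every aged liver lay above every middle-aged one, and the young livers spanned the gap, with replicates 3 and 4 high. Arntl rose from middle-aged to aged by 1.56 ± 0.39 on the log2 scale (fold change and its SE, as for all later fold changes with ±; DESeq2 adjusted p = 0.0117). The call was lost with edgeR (adjusted p = 0.165) and without middle-aged replicate 1 (0.0787), middle-aged replicate 4 (0.121), aged replicate 3 (0.0951) or aged replicate 4 (0.121). The rise was 1.85 within set B (adjusted p = 7.68e-06) and 1.11 within set A (0.636). Middle-aged against young gave -0.79 ± 0.39 (adjusted p = 0.214), and aged against young 0.77 ± 0.39 (0.303).

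Npas2 (ENSMUSG00000026077, chr1:39193731-39363236, plus strand) can take the place of CLOCK and had the lowest mean over the 12 livers, though Per3 was lower in aged livers. Its counts before scaling were 7, 10, 12 and 18 in young livers, 1, 13, 12 and 6 in middle-aged livers and 19, 20, 95 and 53 in aged livers. The 4 aged livers lay above the other 8, and aged replicates 3 and 4 lay far above the rest. On the normalised scale the aged livers held 19.1, 19.3, 83.02 and 47.38. Npas2 differed across the 3 ages (DESeq2 likelihood ratio test, adjusted p = 0.00309; 0.0520 with edgeR and 0.0625 without aged replicate 3). The log2 fold change was 2.52 ± 0.61 in aged against middle-aged livers, where the filter of DESeq2 on low means left it without an adjusted p (unadjusted p = 3.89e-05). Of the alternatives, 15 gave an adjusted p and 12 of these passed, among them the fit without that filter (0.0205). It did not pass with edgeR (0.147) or without middle-aged replicate 4 (0.0800) or aged replicate 4 (0.0712), and set A gave 1.59 ± 1.02 with no adjusted p. Aged against young gave 1.70 ± 0.59 (adjusted p = 0.0848), and this passed the threshold without middle-aged replicate 1 (0.0431) or aged replicate 1 (0.0208) and within set B (2.03, adjusted p = 0.0482).

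Clock (ENSMUSG00000029238, chr5:76209868-76304792, minus strand), which is known for the flattest daily profile of the activators, varied least of the 10 genes between its highest and lowest liver, by 1.77 times. The young livers held 478.7, 397.4, 451.4 and 406.1 normalised counts and the middle-aged ones 376.3, 400.4, 439.7 and 430.0. The aged livers held 340.2, 449.8, 603.9 and 513.1. The ages overlapped, and aged livers spread more widely, with the lowest and the highest of the 12 values. The log2 fold change of aged against young was 0.14 ± 0.15 (95% interval -0.16 to 0.44, DESeq2 adjusted p = 0.747), and no alternative gave Clock a call in any pair of ages.

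Per1 (ENSMUSG00000020893, chr11:69095217-69109960, plus strand) is a Period gene that also answers glucocorticoids, temperature and other acute signals. Its normalised counts were 88.1, 150.3, 88.9 and 123 in young livers and 49.6, 84.4, 56.5 and 49.1 in middle-aged livers. In aged livers they were 27.1, 116.6, 43.7 and 20.6. The 4 young livers lay above the 4 middle-aged ones, whereas aged replicate 2 lay among the young livers and the other 3 aged livers below all of them. On the log2 scale aged against young gave -1.12 ± 0.44 (DESeq2 adjusted p = 0.141). Without aged replicate 2 it was -1.88 and passed (adjusted p = 5.92e-06), as it did within set B, which lacks that liver (-1.73, adjusted p = 0.0110), but not within set A (-0.72, 0.9999). Middle-aged against young gave -0.91 ± 0.44 (adjusted p = 0.196), and this became a call without aged replicate 2 (0.0307) and in a fit of young and middle-aged livers alone (0.0119).

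Per2 (ENSMUSG00000055866, chr1:91415982-91459324, minus strand), a Period gene whose loss disturbs daily rhythm in mice, had no call in any pair of ages under any alternative. The young livers held 117.8, 79.0, 131.5 and 74.2 normalised counts. The middle-aged livers held 155.9, 96.1, 112.1 and 127.3, and the aged livers 72.3, 98.2, 63.8 and 78.7. All 3 ages overlapped. The difference nearest to the threshold was aged against middle-aged, with a log2 fold change of -0.65 ± 0.23 (95% interval -1.11 to -0.19, DESeq2 adjusted p = 0.186).

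Per3 (ENSMUSG00000028957, chr4:151003652-151044665, minus strand), the Period gene with the lesser role in keeping the rhythm, was high in middle-aged livers and low at both other ages. Its normalised counts were 26.5, 43.3, 32.0 and 16.6 in young livers. They were 111.2, 76.3, 56.5 and 91.2 in middle-aged livers, all above every young and aged liver. They were 25.1, 18.3, 9.61 and 15.2 in aged livers, which overlapped the lower young ones. Per3 rose from young to middle-aged by 1.51 ± 0.34 on the log2 scale (DESeq2 adjusted p = 0.000943). It then fell from middle-aged to aged (-2.31 ± 0.36, adjusted p = 1.78e-07), and this fall was called in all 18 alternatives that gave it an adjusted p, including set A (-2.11, 0.0127) and set B (-2.57, 0.00312). The rise was called in 16 of 17 such alternatives. The exception was set A alone, with 1.43 (adjusted p = 0.116); set B gave 1.60 and no adjusted p. Aged against young gave -0.79 ± 0.37 (adjusted p = 0.258). Its promoter window is the one with the D-box pair printed earlier.

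Cry1 (ENSMUSG00000020038, chr10:85131700-85185064, minus strand) encodes the strongest repressor of the ARNTL and CLOCK pair. The young livers held 52.0, 56.0, 74.7 and 61.5 normalised counts and the middle-aged ones 53.6, 50.3, 55.6 and 46.1. The aged livers held 75.3, 86.7, 163.4 and 131.4. All 4 aged livers lay above the other 8, by a small step in replicate 1 and a large one in replicates 3 and 4. Cry1 rose from young to aged by 0.91 ± 0.26 (DESeq2 adjusted p = 0.0188) and from middle-aged to aged by 1.15 ± 0.26 (0.00261). The rise over young was lost with edgeR (adjusted p = 0.0629), in a fit of those 2 ages alone (0.0601) and without young replicate 1 (0.0769), young replicate 2 (0.0901), aged replicate 3 (0.157) or aged replicate 4 (0.10). Within the sets it was 0.59 in set A (adjusted p = 0.9999) and 1.12 in set B (0.0591). The rise over middle-aged livers was 0.64 in set A (0.9999) and 1.54 in set B (0.00308), and edgeR gave 0.0717. Without aged replicate 3 it was 0.93 and had no adjusted p, while the other 11 fits without a liver called it.

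Cry2 (ENSMUSG00000068742, chr2:92403646-92434043, minus strand), the second cryptochrome, fell from middle-aged to aged livers, where Cry1 rose. Its normalised counts were 140.1, 222.9, 189.6 and 170.8 in young livers and 260.1, 290.0, 272.0 and 266.6 in middle-aged livers. In aged livers they were 212.8, 208.1, 153.8 and 136.8. The middle-aged livers were all above the others and close together, with a coefficient of variation of 4.71%. Cry2 rose from young to middle-aged by 0.59 ± 0.17 (DESeq2 adjusted p = 0.0171) and fell from middle-aged to aged (-0.62 ± 0.17, 0.0373). The rise was 0.61 in set A (adjusted p = 0.464) and 0.57 in set B (0.246), and it was lost with edgeR (0.0653) and without young replicate 1 (0.0565), young replicate 4 (0.0618), middle-aged replicate 2 (0.0816) or middle-aged replicate 3 (0.0614). The fall was -0.38 in set A (0.9999) and -0.88 in set B (0.0232). It was lost with edgeR (0.197), without independent filtering (0.1002) and in 8 of 12 fits without a liver, namely young replicates 3 and 4, each middle-aged liver and aged replicates 3 and 4 (adjusted p from 0.0559 to 0.248). Aged and young livers did not separate (-0.02 ± 0.18). Of its exonic bases 4.67% are shared with an antisense gene, D930015M05Rik, which had 9 counts in all livers against 2558.

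Nr1d2 (ENSMUSG00000021775, chr14:18204054-18239127, minus strand), the beta receptor, followed the same course as Per3 in smaller steps. The young livers held 585.9, 398.6, 355.5 and 395.4 normalised counts and the aged ones 364.3, 429.6, 240.3 and 292.3. The middle-aged livers held 737.7, 613.2, 642.8 and 756.7, all above the other 8. Nr1d2 rose from young to middle-aged by 0.66 ± 0.19 (DESeq2 adjusted p = 0.0150) and fell from middle-aged to aged (-1.05 ± 0.19, 3.60e-05). The fall was called with edgeR and without any 1 liver. Within set B it was -1.39 (adjusted p = 7.54e-10), and in set A -0.76 (0.273). The rise was 0.89 in set B (0.000570) and 0.46 in set A (0.600); it was lost with edgeR (0.0696) and without young replicates 2, 3 or 4 or middle-aged replicates 1 or 4 in turn (adjusted p from 0.0507 to 0.0770).

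Nr1d1 (ENSMUSG00000020889, chr11:98767932-98775333, minus strand), the alpha receptor, showed no call between ages over the 12 livers, yet its change with age was not the same in the 2 library sets. In set A it held 595.5 and 526.0 normalised counts in young livers, 811.2 and 988.5 in middle-aged livers and 845.0 and 833.2 in aged livers. In set B it held 745.3 and 832.8, then 717.0 and 660.5, then 447.4 and 431.8. The aged livers of set A thus lay above their young counterparts, and those of set B were the lowest of all 12. The log2 fold change of aged against young was 0.58 in set A (DESeq2 adjusted p = 0.165) and -0.85 in set B (2.59e-05), against -0.08 ± 0.24 over all livers (0.927).

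The test of that difference, an interaction of age and set in a DESeq2 fit of 12 livers, gave -1.42 ± 0.22 for aged against young (set B minus set A; adjusted p = 2.99e-07), where 0.732% of 10799 genes were called. It was called in all 16 alternatives, edgeR and each liver left out among them (-1.52 to -1.34). For middle-aged against young it gave -0.88 ± 0.22 (adjusted p = 0.0193), beside 0.423% of 13005 genes called. This second call was lost with edgeR (0.102) and in 8 of 12 fits without a liver, those without young replicates 2, 3 or 4, middle-aged replicates 2, 3 or 4 or aged replicates 3 or 4 (adjusted p from 0.0678 to 0.539). For aged against middle-aged the difference for Nr1d1 was -0.55 ± 0.22 (adjusted p = 0.449; 0.972% of 12454 genes called). No other member was called in these 3 tests, in which each age and set holds 2 livers. Exons of Nr1d1 overlap those of Thra on the opposite strand over 263 of 3077 bases (8.55%), and Thra had 1934 counts in all against 8547 for Nr1d1. Whether counting used the strand is not given in the sources used here, so reads in that stretch cannot be assigned with certainty.

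The sets also differed in level, a comparison chosen after these values had been seen. With age in the DESeq2 fit, Arntl was higher in set B by 0.89 ± 0.22 on the log2 scale (adjusted p = 0.0363), the only member called, where 0.361% of 14108 genes were. EdgeR gave 0.208, and the call was lost without young replicates 1, 2 or 4, middle-aged replicates 1 or 3, or aged replicates 1, 2 or 3 (adjusted p from 0.0544 to 0.273). Npas2 (1.03 ± 0.43, adjusted p = 0.388), Cry1 (0.42 ± 0.19, 0.425), Per3 (-0.53 ± 0.27, 0.549) and Nr1d2 (-0.30 ± 0.14, 0.463) did not pass. Beside these values, 2 of 6 stellate cell markers were called higher in set B, Dcn by 0.77 ± 0.10 (adjusted p = 1.99e-09) and Col3a1 by 1.16 ± 0.23 (0.00231). None of the 6 was at 0 in all livers, their part in the clock values was not tested, and their summed normalised count per liver ran from 1375 to 3071 at 3 months, 1812 to 3877 at 12 months and 1654 to 3182 at 18 months.

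**Figure D3:**
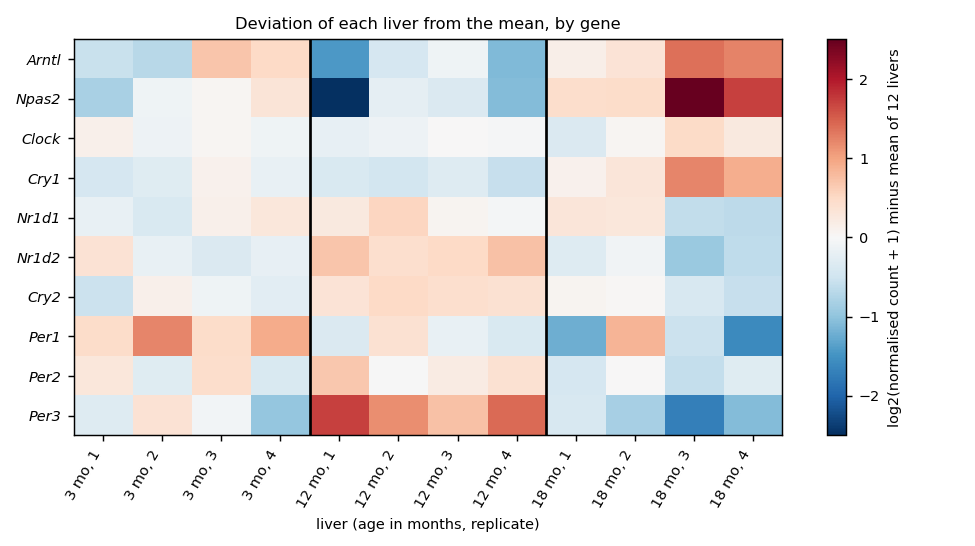
Deviation of each liver (columns, by age and replicate) from the mean of 12 livers for each gene (rows), on the scale of log2(normalised count + 1); red is above and blue below the mean, and black lines part the ages. In aged replicates 3 and 4, Arntl, Npas2 and Cry1 are red while Nr1d1, Nr1d2 and Per3 are blue, and in middle-aged replicate 1 Arntl and Npas2 are blue while Per3 and Nr1d2 are red.

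How the members moved together from liver to liver was measured against Arntl, as 9 relations over 12 livers on log2(normalised count + 1). Npas2 (Pearson's r = 0.91, Spearman's rho = 0.89) and Cry1 (0.87 and 0.84) went with Arntl. Per3 (-0.88 and -0.86) and Nr1d2 (-0.88 and -0.87) went against it. For these 4 the permutation p of r, adjusted over the 9 relations, was 0.000180, 0.000450, 0.000563 and 0.000563 in that order, and that of rho 0.00180, 0.00250, 0.00189 and 0.00189. Leaving out middle-aged replicate 1 and aged replicate 3, the 2 livers farthest from the Arntl median, left r at 0.88, 0.88, -0.77 and -0.81.

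These 4 relations were also seen among livers of the same age. On deviations from the age means r was 0.80 for Npas2, 0.74 for Cry1, -0.76 for Per3 and -0.74 for Nr1d2, with an adjusted p of 0.0306 for Npas2 and 0.0322 for each of the other 3 by exact permutation within ages. In set A alone (6 livers) r was 0.91, 0.79, -0.83 and -0.73, and in set B alone 0.91, 0.90, -0.93 and -0.97. The permutation within ages exchanged livers of both sets, so a difference between sets can enter its p. On deviations from the mean of each age and set, which rest on pairs of livers, r was 0.78, 0.35, -0.56 and -0.40. No test was run on these last values. The genes of a liver share a library and a size factor.

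The other 5 relations with Arntl were weaker. Cry2 (r = -0.66, adjusted permutation p = 0.0373), Per2 (-0.64, 0.0376) and Clock (0.61, 0.0450) passed on r, but on rho, with -0.63, -0.58 and 0.62, their adjusted p was 0.0522, 0.0667 and 0.0522. Without the 2 farthest livers r was -0.56, -0.34 and 0.31, so those of Per2 and Clock rest on them. Within ages the adjusted exact permutation p was 0.528, 0.536 and 0.137. Nr1d1 (r = -0.39, rho = -0.17) and Per1 (-0.26 and -0.17) did not pass (adjusted permutation p of r 0.235 and 0.417, of rho 0.587 and 0.587). For Nr1d1, r was 0.26 in set A and -0.56 in set B.

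**Figure D4:**
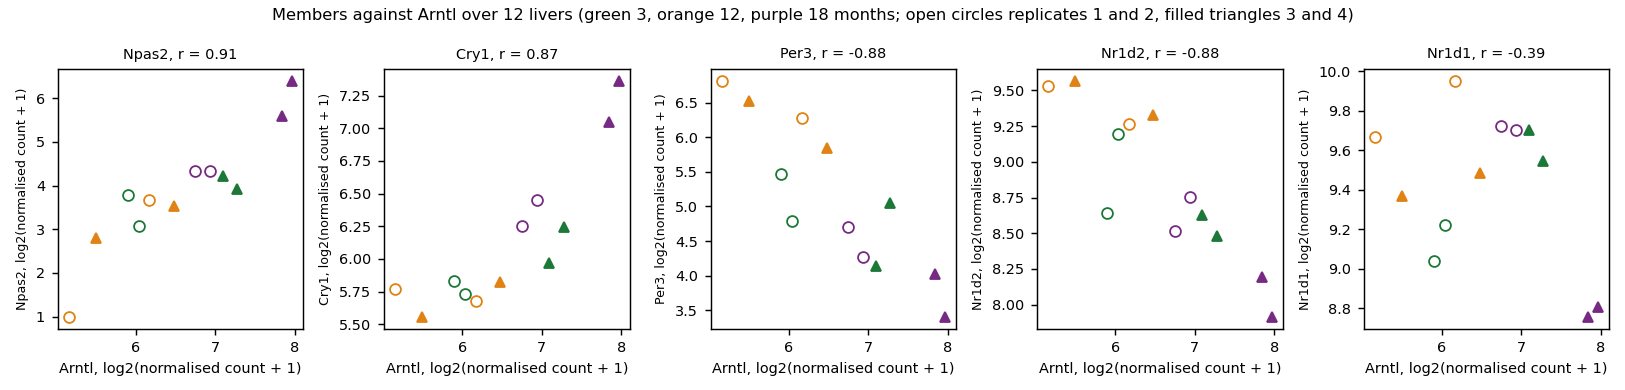
Npas2, Cry1, Per3, Nr1d2 and Nr1d1 (y axes) against Arntl (x axis), all as log2(normalised count + 1), in 12 livers; colours mark age and symbols the library set. Npas2 and Cry1 go up with Arntl (r = 0.91 and 0.87), Per3 and Nr1d2 go down (both r = -0.88), and Nr1d1 has r = -0.39.

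A ratio of 2 members within a liver does not depend on the scaling of libraries. The log2 ratio of Arntl to Per3 counts was 1.29, 0.44, 2.27 and 3.03 at 3 months, -1.68, -0.11, 0.64 and -1.05 at 12 months and 2.08, 2.73, 4.70 and 3.91 at 18 months. Aged and middle-aged livers did not overlap, and young livers reached into both. The log2 ratio of Cry1 to Cry2 was -1.43, -1.99, -1.34 and -1.47 at 3 months, -2.28, -2.53, -2.29 and -2.53 at 12 months and -1.50, -1.26, 0.09 and -0.06 at 18 months. All middle-aged livers were below the other 8, and aged replicates 3 and 4 stood above the rest.

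For Nr1d1 over Nr1d2 the young livers gave 0.02, 0.40, 1.07 and 1.07, the middle-aged ones 0.14, 0.69, 0.16 and -0.20 and the aged ones 1.21, 0.96, 0.90 and 0.56. The young livers split by set, which neither of the other ages did in the same direction.

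Genes outside the loop with the pattern most like that of Arntl or Nr1d1 were sought among the 8888 genes whose mean reached 50, by Pearson's r over 12 livers, as a description without a test. Nearest to Arntl were Clpx (a mitochondrial protease subunit; r = 0.92), Sowahb (0.91), Terf2 (a telomere-binding protein; 0.90), Tsc22d1 (0.89) and Lrfn3 (0.89). Clpx averaged 2141 ± 280 at 3 months, 1636 ± 206 at 12 months and 2985 ± 343 at 18 months (SD, n = 4), with no overlap between aged and other livers. Nearest to Nr1d1 were Tdrd7 (0.94), Klhl21 (0.92), Lad1 (0.91), Mettl7b (0.90) and Rgp1 (0.90). Lad1 held 177.6 and 200.4 in the aged livers of set A and 72.5 and 51.0 in those of set B.

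A list of 18 other genes of the clock loop or of clock protein turnover was set beside the members. From young to middle-aged Bhlhe40, a repressor that competes for E-boxes, rose (0.80 ± 0.26, DESeq2 adjusted p = 0.0381). The list's median was 0.07 over its 18 genes, and that of all genes tested was 0.01. This and every later list median takes in all genes of the list with counts, also those without an adjusted p. From middle-aged to aged 2 of 15 fell, Usp2 (a deubiquitinase under clock control; -2.33 ± 0.42, 2.76e-05) and Bhlhe41 (-1.61 ± 0.41, 0.0154), with a median of -0.16, beside 1.14% of all genes called in that comparison. Usp2 was also the only 1 of 17 called between young and aged (-1.55 ± 0.43, DESeq2 adjusted p = 0.0146, list median 0.02), beside 3.58% of all genes.

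Of the 4 factors that bind D-boxes, 3 were called from young to middle-aged, and the same 3 from middle-aged to aged. All genes tested gave 6.41% and 1.14% called in these comparisons. Dbp, a transcript with a very large daily swing in liver, held 188, 220, 173 and 130 normalised counts in young livers, 908.5, 657, 503 and 686.5 in middle-aged livers and 173, 157, 18.4 and 52.7 in aged livers. Its middle-aged livers were all above the other 8, and aged replicates 3 and 4 were the lowest. Of the 4 genes, Dbp (1.955 ± 0.56, DESeq2 adjusted p = 0.0142) and Tef (0.91 ± 0.21, 0.00180) rose from young to middle-aged and then fell (-2.78 ± 0.56, 0.000355; -1.27 ± 0.21, 5.77e-06).

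Nfil3, a repressor at the same boxes, fell from young to middle-aged (-1.01 ± 0.22, DESeq2 adjusted p = 0.000691) and rose from middle-aged to aged by 1.53 ± 0.22 (1.65e-08). Hlf was called in none of the 3 comparisons and no gene of the list was called between young and aged. The list's medians were 0.69, -0.72 and -0.04 from young to middle-aged, from middle-aged to aged and from young to aged. Of 6 liver genes listed as E-box outputs, 5 were tested. Whether each of them is driven through an E-box was not tested. Wee1, a cell cycle kinase (1.72 ± 0.35, adjusted p = 0.000148), and Por, the electron donor of cytochrome P450 enzymes (0.67 ± 0.18, 0.00579), rose from young to middle-aged and fell to aged (-1.72 ± 0.34, 0.000303; -0.93 ± 0.18, 9.46e-05), with list medians of 0.22 and -0.82. None was called between young and aged (list median -0.17). Of all genes tested, 6.41% were called from young to middle-aged, 1.14% from middle-aged to aged and 3.58% from young to aged.

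Lists of genes that answer signals known to reach the clock were set beside these values. Of the glucocorticoid targets, Zbtb16 (-2.13 ± 0.30, DESeq2 adjusted p = 7.56e-10) and Tsc22d3 (-1.04 ± 0.23, 0.000678) fell from young to middle-aged. These were 2 of 7 tested, beside 6.41% of all genes (list median -0.41). Zbtb16 was the only 1 of 8 called between young and aged (-1.99 ± 0.29, DESeq2 adjusted p = 1.91e-08, list median -0.54), beside 3.58% of all genes. None of 7 was called between middle-aged and aged (list median 0.14).

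Of 8 temperature-responsive genes tested from young to middle-aged, Hsp90aa1, a heat shock chaperone, fell (-0.67 ± 0.20, DESeq2 adjusted p = 0.0194, list median -0.46). It was the only 1 called, beside 6.41% of all genes tested. None was called from middle-aged to aged (median 0.10) or from young to aged (median -0.30). Of 5 immediate early genes tested, Fos (-3.07 ± 0.87, DESeq2 adjusted p = 0.0137) and Egr1 (-3.49 ± 0.73, 0.000281) fell from young to middle-aged, beside the same 6.41% of all genes. No gene of this list was called in the other 2 comparisons. The medians over all 7 genes of the list were -0.71, then 0.66 from middle-aged to aged and -0.62 from young to aged. Their part in the clock values was not tested.

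Of 11 genes that follow feeding and fasting, Srebf1 (0.81 ± 0.20, DESeq2 adjusted p = 0.00382) and Pklr (0.77 ± 0.25, 0.0401), of lipid synthesis and glycolysis, rose from young to middle-aged, and Igfbp1, a fasting-induced secreted protein, fell (-3.36 ± 0.60, 5.58e-06; list median -0.17). Igfbp1 was also lower in aged than young livers (-2.14 ± 0.59, DESeq2 adjusted p = 0.0147, list median 0.02). No gene was called between middle-aged and aged (list median 0.05). Of all genes tested, 6.41% were called from young to middle-aged and 3.58% from young to aged. The part of feeding genes in the clock values was not tested.

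Some markers of other cell types differed between ages. Of all genes tested, 3.58% were called between young and aged livers and 1.14% between middle-aged and aged livers. Marco, of 7 Kupffer cell and macrophage markers, was higher in aged than young livers (2.46 ± 0.69, DESeq2 adjusted p = 0.0178). Its aged livers held 790.8, 104.0, 96.1 and 261.0 normalised counts. Clec4f, Adgre1, Cd68, Csf1r and C1qa leaned lower in aged than young livers, and Vsig4 gave 0.009. None of these was called, and the list median was -0.09. The 7 together summed to 2334 to 4162 normalised counts per liver at 3 months, 2051 to 2660 at 12 months and 2472 to 4092 at 18 months. Sox9, of 5 cholangiocyte markers, was higher in aged than young (0.86 ± 0.24, DESeq2 adjusted p = 0.0169) and middle-aged livers (0.95 ± 0.24, 0.0117). Krt19, Krt7, Epcam and Spp1 leaned the other way in both comparisons, without a call (list medians -0.273 and -0.125). The cholangiocyte sums were 280 to 352, 120 to 448 and 224 to 408. Of 3 erythroid markers, Hbb-bs (-1.67 ± 0.53, 0.0498) and Alas2 (-0.60 ± 0.18, 0.0255) were lower in aged than young livers, and Hba-a1 gave -1.83 ± 0.62 (0.0752). The erythroid sums were 16870 to 60070, 9746 to 35990 and 7398 to 15830, without overlap between young and aged livers. No marker was at 0 in all livers, and none of the 7 hepatocyte, 6 endothelial and 6 stellate cell markers was called between ages. Of the 6 lymphocyte markers, 5 had an adjusted p in aged against young, 3 in middle-aged against young and 2 in aged against middle-aged livers, and none of those was called. Endothelial sums were 1230 to 2005, 1254 to 1430 and 1323 to 1493, and lymphocyte sums 133 to 226, 108 to 365 and 99.2 to 190, from young to aged. The part of these cells in the clock values was not tested.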

How the data were processed

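The authors deposited 1 table of whole-number read counts per Ensembl gene and per spike-in transcript for 12 mouse livers, not normalised. The submitters' processing notes name STAR 2.5.2b, SAMtools 1.9, featureCounts, R 3.6.3, edgeR 3.28.1 and DESeq2 1.26.0 with mm10 (GRCm38); the counting settings, strand included, are not given in the sources used here. The labels' protocol names a directional library kit. Groups and replicate numbers came from the sample titles. The counts were analysed from there in R 4.3.3. Symbols, positions and exon lengths came from GENCODE M21 (53274 of 53465 genes matched). The 92 spike-in transcripts were left out of gene tests, and 31 of them with at least 50 counts defined the library sets.

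The 28449 genes with a count were fitted with DESeq2 1.42.0 (12 livers, age as the only term, default filtering, Wald test for pairs and likelihood ratio test for 3 ages, Benjamini-Hochberg over all genes tested, threshold 0.05). The interaction fit had age, set and their product. Alternatives were edgeR 4.0.16, TMM factors, a minimum of 10 counts in 4 or more samples, independent filtering switched off, only the groups compared, a replicate block, the set as covariate, each set alone and each liver left out. Fits within a set estimate the spread from 2 livers per age. Correlations used log2(normalised count + 1) and 100000 permutations, or all 13824 within ages. The fits were tested on simulated data. P-values measure the spread between animals, and the total of 8124312 to 10527159 gene counts per library limits low genes such as Npas2.

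The members, lists and tests were chosen with earlier results of these data known. All 10 members are named in every comparison, the 5 nearest genes to Arntl and to Nr1d1 by r, and list genes only where called; a result for 1 list gene is not reported here. No pair of libraries of an age agreed within counting noise (a chi-square per gene of at least 11.3). The comparison of set B with set A was added after seeing the data.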

Additional observations from a re-analysis of the deposited data

Results flagged for a closer look

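Nr1d1 was picked out because its change with age differed between the 2 library sets by a test of that difference. The log2 fold change in set B minus that in set A was -1.42 for aged against young and -0.88 for middle-aged against young (DESeq2 interaction, adjusted p = 2.99e-07 and 0.0193). The first held in all 16 alternatives and the second in 7 of them. Within 30 groups of 4 livers (10 members at 3 ages), none had a liver beyond Dixon's 95% critical value, where chance gives about 1.5 groups.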

How the results depend on the processing

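Counts of members called moved most with the test and the livers used. The share of all genes called in the set, block, group and leave-out fits is not given here. These counts therefore have no background beside them. For aged against young (1 by DESeq2) edgeR, the fit of those groups alone and set A gave 0, the replicate block 2 and set B 3, and leaving out a liver 0 to 2. For middle-aged against young (3) edgeR and set A gave 1, set B 2 and leaving out a liver 1 to 4. For aged against middle-aged (5) edgeR gave 2, set A 1, set B 7 and leaving out a liver 1 to 6. For the 3 ages (6) edgeR gave 3, set A 1, set B 8 and leaving out a liver 4 to 7. For set B against set A (1) edgeR gave 0 and leaving out a liver 0 to 1. Each set fit uses 6 livers. The cause of these moves was not tested.

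Signs turned for values without a call. In set A, aged against young gave -0.15 for Clock, 0.22 for Cry2 and 0.58 for Nr1d1, and aged against middle-aged 0.11 for Per1. In set B, middle-aged against young gave 0.012 for Clock and -0.21 for Nr1d1. TMM factors gave 0.0030 for Cry2 in aged against young. Leaving out a liver gave -0.13 to 0.091 for Cry2 and -0.24 to 0.069 for Nr1d1 in aged against young, -0.97 to 0.059 for Per1 in aged against middle-aged and -0.22 to 0.0025 for Per2 between sets. On deviations from age and set means, r with Arntl turned to 0.34 for Per1, 0.13 for Cry2 and 0.71 for Nr1d1.

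The replicate block gave Per1 a call in aged against young (log2 fold change -1.34) and across the 3 ages, and gave Npas2 an adjusted p of 0.000516 in aged against middle-aged livers; it changed no other call. The numbers belong to different animals and did not pair them: deviations of same-numbered livers from their age means correlated over 0.1 in 2 of 12 pairs, from -0.302 to 0.158.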
